A study of Rattus norvegicus with 6 samples.

Results

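The genes that make hemoglobin were followed through RNA of rat liver and through the light and heavy parts of its polysome profile. All loci whose symbol starts with Hba (alpha globin) or Hbb (beta globin) were taken, together with Alas2 and AC113925.2, a locus beside the beta globins. This rule found 6 of the 33022 loci in the data, namely Hbb, Hbb-b1, AC113925.2, Hba1, Hba2 and Alas2. The rule uses names, but the genes were chosen on their FPKM values in these same libraries, the light fractions above all, so their levels and ratios are a description. All libraries came from obesity-prone Sprague Dawley rats, male and with an initial weight of 160 to 190 g, whose age is not given in the sources used here. The rats ate a control diet (CD) or a Western diet (WD), which is rich in milk fat and sucrose and contains cholesterol, for 2 weeks. They were then fasted overnight and given their own diet again for a short time the next morning. RNA was taken from the left liver lobe as total RNA, as the light fraction of a sucrose gradient (mRNAs carrying 3 or fewer ribosomes) and as the heavy fraction (4 or more). Equal amounts of RNA from 3 rats per diet were pooled, so each group is 1 library, no value has a replicate, and differences compare libraries rather than diets.

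Hemoglobin is built from alpha and beta globin chains, each of which holds a heme. In the adult rat both chains are made by red cell precursors in the marrow, and by reticulocytes, young red cells that have lost their nucleus and still translate the globin mRNA they inherited. Globin mRNAs are short, and in a liver sample they are best known as a sign of blood in the vessels. Alas2 encodes the red-cell form of 5-aminolevulinate synthase, the first enzyme of heme synthesis, whereas the liver itself relies on Alas1.

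The red-cell genes sit in 3 places of the rat genome assembly Rnor_6.0. Hbb, the adult beta globin, spanned 1453 bases on chromosome 1 (168971273 to 168972725). Hbb-b1, another beta globin, and AC113925.2 were given the same overlapping locus just beside it (168945448 to 168965566). The alpha globins Hba2 (15589363 to 15590220) and Hba1 (15602793 to 15603649) lay on chromosome 10, and Alas2 (23167695 to 23187341) on chromosome X. The copies within the alpha and within the beta family resemble each other closely, and how reads that match several copies were counted is not given in the sources used here, so the split of a signal between copies is uncertain.

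The stretches of 150 bases just before the start of each gene are printed here because the globins were all highest in the same library and Alas2 was lowest there. They come from RefSeq for the assembly GRCr8, which differs from the assembly of the data, in which Hbb, Hbb-b1 and Alas2 were found under the same symbol. The alpha globins are named Hba-a1 and Hba-a2 there. Hba2 is an older name of Hba-a2 alone, and Hba-a1 lies between Hbq1b and Hbz, as the Hba1 locus does in the data. Capitals mark CACCC boxes, CCAAT boxes, the TATA-like letters ATAAA and the GATA motif GATAA. All were searched on both strands, and matches may overlap. The windows are on the minus strand for the globins and on the plus strand for Alas2, and each is written in the direction of its gene.
Hbb (chr1:167663722-167663871): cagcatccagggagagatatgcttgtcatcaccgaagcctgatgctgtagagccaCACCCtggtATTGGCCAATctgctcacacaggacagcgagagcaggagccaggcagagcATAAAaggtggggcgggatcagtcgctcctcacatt
Hbb-b1 (chr1:167643521-167643670): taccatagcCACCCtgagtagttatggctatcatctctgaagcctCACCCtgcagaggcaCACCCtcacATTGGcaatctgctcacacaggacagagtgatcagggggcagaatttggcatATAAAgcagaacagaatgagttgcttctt
Hba-a1 (chr10:15842581-15842730): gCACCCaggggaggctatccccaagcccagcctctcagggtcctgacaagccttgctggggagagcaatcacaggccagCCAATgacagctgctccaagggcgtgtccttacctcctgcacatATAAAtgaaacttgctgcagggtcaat
Hba-a2 (chr10:15829139-15829288): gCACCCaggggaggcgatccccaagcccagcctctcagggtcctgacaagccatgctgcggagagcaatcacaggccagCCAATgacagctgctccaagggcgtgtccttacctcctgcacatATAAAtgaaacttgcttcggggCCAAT
Alas2 (chrX:22895300-22895449): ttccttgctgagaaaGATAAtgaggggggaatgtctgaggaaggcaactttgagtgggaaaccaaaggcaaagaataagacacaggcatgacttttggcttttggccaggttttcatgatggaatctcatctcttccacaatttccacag

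Each of the 4 globin windows held the CACCC box, the CCAAT box and the letters ATAAA. These 3 motifs occurred together in 533 (1.59%) of the 33469 RefSeq windows of the same length, and singly in 35.2%, 23.5% and 25.7% of them. The Alas2 window held none of the 3 but had GATAA, 135 bases before the start, a motif of 14.2% of the windows. Hba-a1 and Hba-a2 were identical at 144 of 150 bases (96%), whereas Hbb and Hbb-b1 matched at 106 of 138 aligned bases (76.8%). A match describes the letters and is not evidence of a bound factor.

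The light fraction of WD rats held the highest level of every globin locus, whereas Alas2 was lowest there, though by less than counting error next to WD total RNA. Summed over the 5 globin loci (Hbb, Hbb-b1, Hba1, Hba2 and AC113925.2, which is counted with the globins by position alone), the level was 694 FPKM in the WD light fraction and 84.8 FPKM in the CD light fraction. FPKM is the deposited unit, sequenced fragments scaled by the length of the transcript and by the depth of the library. Total RNA had 47.4 FPKM in CD livers against 22.7 FPKM in WD livers, and heavy RNA had 21.1 against 15.3 FPKM. As a share of the FPKM of all loci with a symbol, the globins made up 79.9 per 100000 in that library, compared with 2.19 to 12.5 per 100000 in the other 5. The globin sum was thus higher in WD than in CD in the light fraction alone, and lower in total and heavy RNA. Bulk RNA cannot tell more red cells from more globin mRNA per cell, and whether either differed between the pools was not tested. The part played by the WD light library itself was not tested either.

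**Figure D1:**
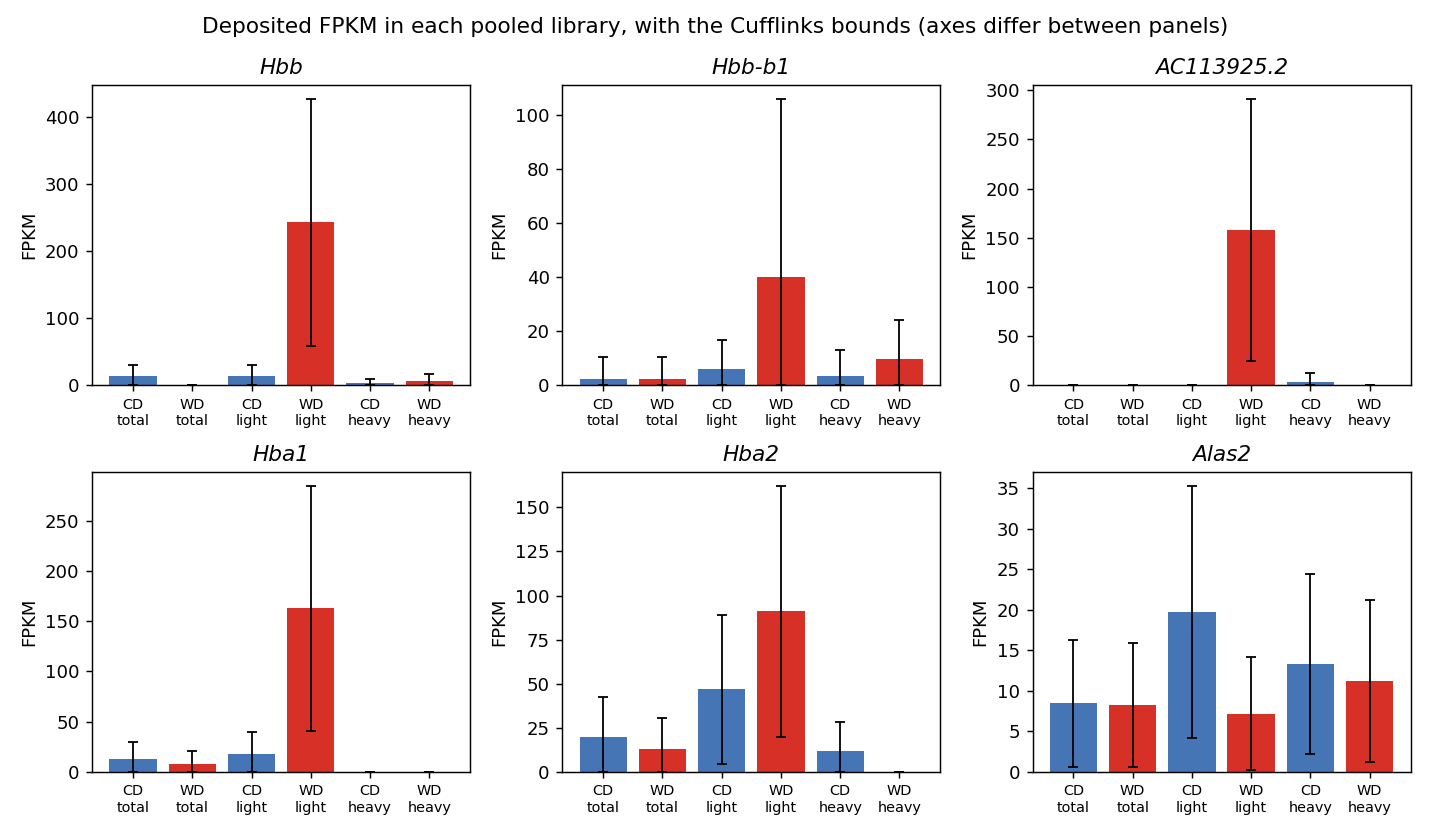
Deposited FPKM (vertical axes, which differ between panels) of the 6 loci in each of the 6 pooled libraries, with bars for the values, lines for the bounds Cufflinks gave, blue for CD and red for WD. Each globin locus is highest in the WD light fraction, from 40.1 FPKM for Hbb-b1 to 242 FPKM for Hbb, and Alas2 is lowest there at 7.18 FPKM.

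Hbb was at 13.3 FPKM in CD total RNA, listed at 0 in WD total RNA, at 13.9 FPKM in the CD light, 242 FPKM in the WD light, 3.00 FPKM in the CD heavy and 5.85 FPKM in the WD heavy fraction. Cufflinks bounded the WD light value between 58.6 and 426 FPKM, a range above the upper bounds of all other libraries, the highest of which was 30.4 FPKM. The WD light fraction thus held 87.0% of the Hbb signal summed over the 6 libraries.

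The number of sequenced fragments behind a value could be inferred for 4 of the 6 loci, because FPKM values of a gene step in whole fragments. Hbb rested on 7 fragments in CD total RNA, 5 in the CD light, 189 in the WD light, 1 in the CD heavy and 2 in the WD heavy fraction. The number for the WD light fraction stands out against single-digit numbers elsewhere, and was too large to be checked against the bounds.

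Hba1 was at 12.3 FPKM (5 fragments) in CD and 7.73 FPKM (3 fragments) in WD total RNA, at 18.0 FPKM (5 fragments) in the CD light and 163 FPKM (98 fragments) in the WD light fraction. Both heavy fractions list it at 0. Its bounds in the WD light fraction, 40.8 to 284 FPKM, also lay above those of every other library, though barely, since the CD light bound reached 39.4 FPKM. How many of all loci have such a gap was not counted.

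Hba2 was at 19.7 FPKM (8 fragments) in CD and 12.9 FPKM (5 fragments) in WD total RNA, at 46.8 FPKM (13 fragments) in the CD light, 91.0 FPKM (55 fragments) in the WD light and 11.6 FPKM (3 fragments) in the CD heavy fraction, and listed at 0 in the WD heavy fraction. Here the bounds of the light fractions overlapped, at 4.60 to 88.9 FPKM in CD and 19.8 to 162 FPKM in WD. Of the 3 globins with fragment numbers, Hba2 had the smallest ratio between the light fractions, and it had the highest FPKM in each CD library.

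Hbb-b1 was at 2.06 FPKM in CD and 2.16 FPKM in WD total RNA, at 6.04 FPKM in the CD light, 40.1 FPKM in the WD light, 3.24 FPKM in the CD heavy and 9.50 FPKM in the WD heavy fraction. The bounds of all 6 values reached down to 0, so they overlap throughout. AC113925.2 reached 158 FPKM in the WD light library (bounds of 24.3 to 291 FPKM), stood at 3.26 FPKM in the CD heavy fraction, and was listed at 0 in the other 4. Hbb-b1 and AC113925.2 overlap each other, and neither had fragment numbers that matched their bounds.

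Alas2 was at 8.43 FPKM (15 fragments) in CD and 8.23 FPKM (14 fragments) in WD total RNA, at 19.7 FPKM (24 fragments) in the CD light, 7.18 FPKM (19 fragments) in the WD light, 13.2 FPKM (15 fragments) in the CD heavy and 11.2 FPKM (13 fragments) in the WD heavy fraction. Its order of libraries is unlike that of the globins, with the CD light fraction highest and the WD light fraction lowest. Except for AC113925.2, all of the loci had a mean of at least 1 FPKM also over the 5 libraries other than WD light. The mean of AC113925.2 was 26.8 FPKM with that library and 0.652 FPKM without it.

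The WD light library differs from the others in ways that touch these values. It was sequenced more deeply, at 2.34 times the CD heavy library per unit of FPKM, against 1.02 to 1.57 times for the rest. Its loci with a symbol summed to 867734 FPKM, and those of the other libraries to between 617369 and 700724 FPKM. The part that these differences play in the globin values was not tested.

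To ask which mRNAs differ between the diets, WD was compared with CD within each kind of RNA, as the ratio of FPKM after adding 0.1 FPKM. A ratio of at least 1.5 was counted as higher and one of at most 0.75 as lower, limits that the study's methods set for ribosome density, among the 10201 loci that have a symbol and average 1 FPKM or more. In the light fraction, all 5 globin loci were higher in WD, compared with 25.9% of all loci, and Alas2 was lower, as were 26.8% of all loci. These values helped to choose the set, so nothing is read from the counts. With all libraries scaled to equal sums, the count of all loci went from 2642 higher and 2737 lower to 1773 higher and 4498 lower, with a median log2 ratio of -0.29 in place of 0.017, and the count of globins higher remained at 5.

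Hbb was 17.4 times as high in the WD as in the CD light fraction by FPKM, with a 95% interval from 7.32 to 54.2. Such intervals are exact binomial (Clopper-Pearson) intervals of the inferred fragments, scaled by the weight of a fragment in each library, and cover counting error only, because PCR copies of 1 molecule could not be told from separate molecules. Hba1 was 9.01 times as high (3.73 to 28.4) and Hba2 was 1.95 times as high (1.05 to 3.88). The intervals of Hbb and Hba1 overlap each other, and that of Hba2 begins just above 1. All intervals hold for FPKM as deposited. With all libraries scaled to equal sums, the log2 ratio of Hba2 was 0.61 in place of 0.96. Intervals were not computed on that scale, so a lower end near 1 depends on the scaling.

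Alas2 had a WD to CD ratio of 0.364 in the light fraction, with an interval from 0.189 to 0.693 that lies below 1. The ratio of Hbb-b1 was 6.64 without an interval, and AC113925.2 was listed at 0 in the CD light fraction. Ranked by the log2 ratio after adding 0.1 FPKM, from the highest of the 10201 loci, AC113925.2 was at place 29, Hbb at 420, Hba1 at 540, Hbb-b1 at 597, Hba2 at 1723 and Alas2 at 9750.

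Total RNA gave no such picture. In it no globin locus was higher in WD (17.7% of all loci were), and Hbb, Hba1 and Hba2 were lower, compared with 22.7% of all loci. The ratio was 0.627 for Hba1 (0.0974 to 3.22) and 0.653 for Hba2 (0.168 to 2.27), intervals that both include 1. Hbb went from 13.3 FPKM (7 fragments) to a value listed at 0, with a counting interval of the ratio from 0 to 0.725. With 1 library per diet, this 0 is not read as absence. Alas2 had a ratio of 0.976 (0.436 to 2.17) and Hbb-b1 one of 1.05.

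In the heavy fraction the loci went different ways. Hbb (1.95, interval of 0.102 to 115) and Hbb-b1 (2.93) counted as higher in WD, as did 21.7% of all loci. Hba2 and AC113925.2 counted as lower, each listed at 0 in the WD library, as did 25.8% of all loci. Alas2 had a ratio of 0.846 (0.371 to 1.91). With 0 to 3 fragments of Hbb, Hba1 and Hba2 in each heavy library, a difference between the diets was not detectable for these 3 at this depth, and Hbb-b1 and AC113925.2 have no fragment numbers.

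**Figure D2:**
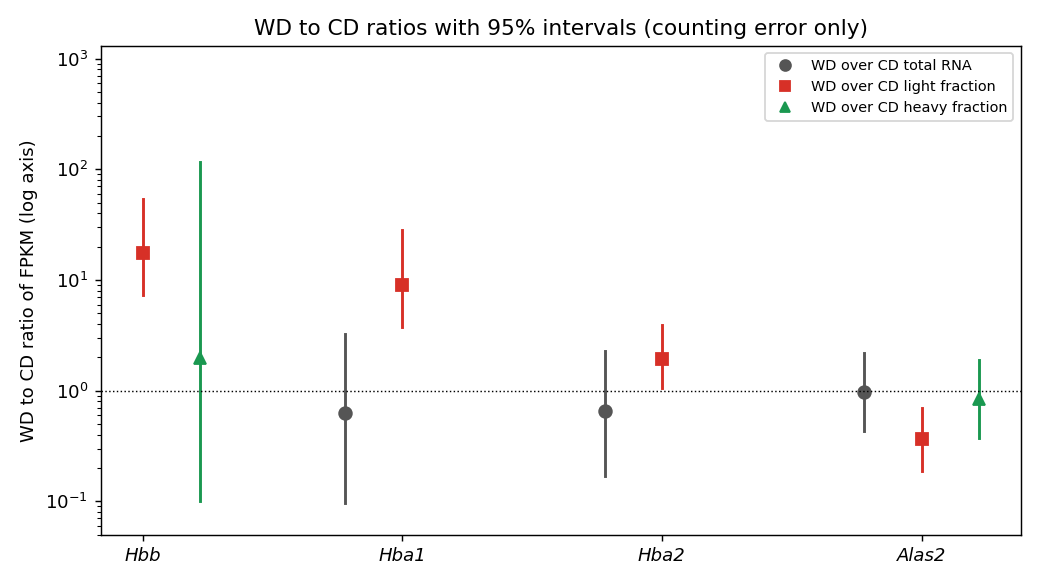
WD to CD ratio of FPKM (log axis) in total RNA, the light and the heavy fraction for the 4 loci with fragment numbers, where points are ratios and lines are exact 95% intervals from the fragments; comparisons with a value listed at 0 are left out. In the light fraction Hbb (17.4), Hba1 (9.01) and Hba2 (1.95) lie above 1 and Alas2 (0.364) lies below 1, and the other intervals include 1.

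**Figure D3:**
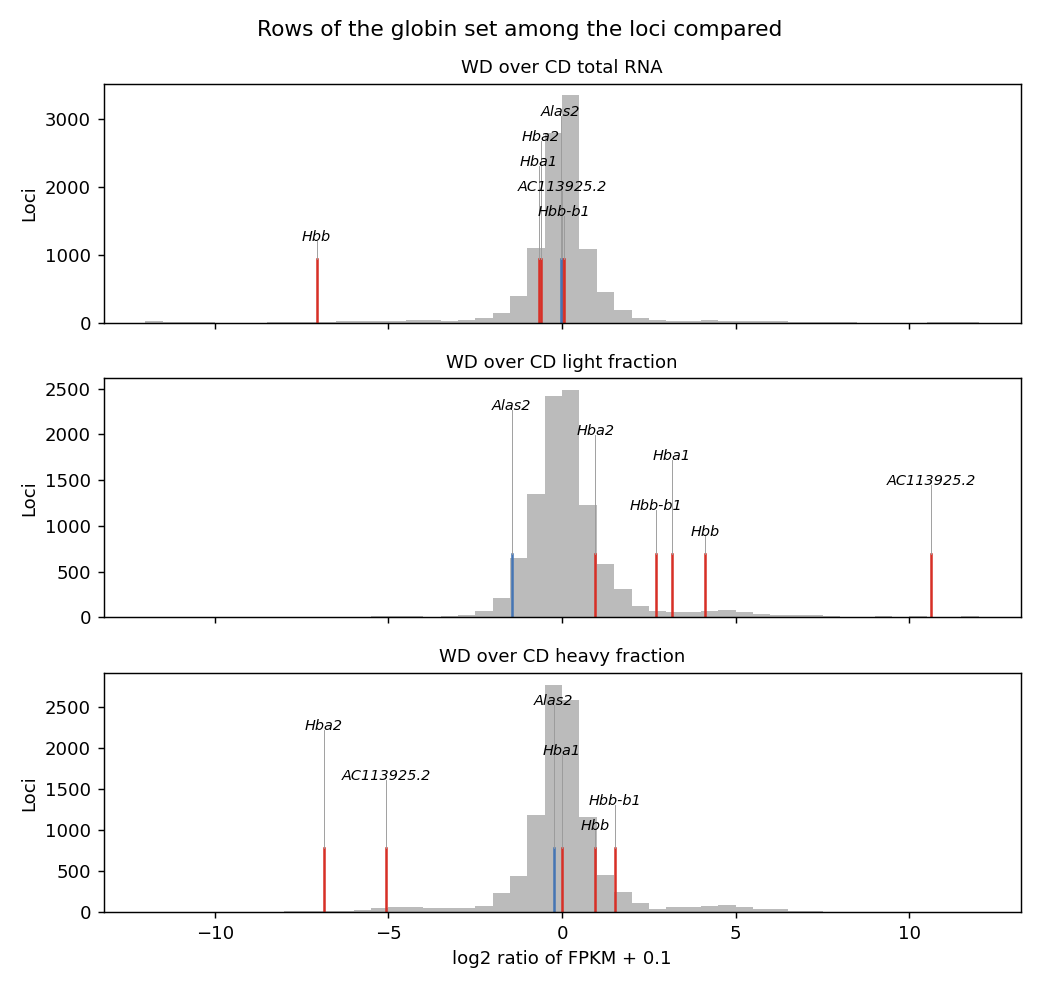
Histograms of the log2 ratio of WD to CD (FPKM + 0.1) over the 10201 loci compared, in total RNA, the light and the heavy fraction, with lines for the 5 globin loci (red) and Alas2 (blue). In the light fraction the globins lie between 0.96 (Hba2) and 10.6 (AC113925.2, listed at 0 in CD) and Alas2 at -1.44; values far from 0 in the other panels come from loci listed at 0 in 1 of the libraries.

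The position of an mRNA in the gradient was described by its light to heavy ratio within a diet. In CD livers, 4 of the 5 globins had a light to heavy ratio of at least 1.5, compared with 32.6% of all loci, and AC113925.2, which is among the loci compared only through its WD light value, was at most at 0.75, as were 37.7%. Hba2 was 4.03 times as high in the light as in the heavy fraction (interval of 1.11 to 22.1) and Hbb was 4.66 times as high (0.521 to 220), an interval that includes 1. Hba1 was listed at 0 in the heavy fraction and Hbb-b1 had a ratio of 1.86. For Alas2 the ratio was 1.49 (0.75 to 3.05).

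In WD livers all 5 globins had a light to heavy ratio of at least 1.5, compared with 34.9% of all loci. The WD light values helped to choose the set, and AC113925.2 is compared only through its own, so nothing is read from this count. Hbb was 41.4 times as high in the light fraction (11.3 to 345) and Hbb-b1 was 4.22 times as high, whereas Hba1, Hba2 and AC113925.2 were listed at 0 in the heavy fraction. Alas2 had a light to heavy ratio of 0.641, with an interval from 0.300 to 1.41 that includes 1. By value, light RNA exceeded heavy RNA for Hbb, Hba1, Hba2 and Hbb-b1 under both diets.

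The change in ribosome density was taken as the heavy to light ratio in WD over that in CD, the inverse of the study's own comparison of CD with WD. It was at most 0.75 for all 5 globins, compared with 36.1% of all loci, and at least 1.5 for Alas2, as for 27.7% of all loci. With the limits applied to CD over WD instead, all 5 globins reached 1.5 or more (30.9% of all loci) and Alas2 was at most at 0.75 (32.9%). These counts use the light fraction values that helped to choose the set, and AC113925.2 is compared only through its WD light value. Nothing is read from them. On the log2 scale the change was -3.17 for Hbb, -1.19 for Hbb-b1 and 1.21 for Alas2. For the other 3 loci it involved at least 1 library listed at 0. The direction depended on the measure. When total RNA took the place of the light fraction, the change was 1.46 for Hbb-b1, -0.20 for Alas2, 0.67 for Hba1, whose heavy libraries are both listed at 0, and 8.01 for Hbb, whose WD total RNA is listed at 0.

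The make-up of the globin signal also differed between the light libraries. Alpha globins (Hba1 and Hba2) accounted for 18 of 23 fragments of Hba1, Hba2 and Hbb in the CD light fraction, or 78.3% (exact 95% interval of 56.3% to 92.5%). In the WD light fraction they accounted for 153 of 342, or 44.7% (39.4% to 50.2%). The intervals do not overlap, but they cover counting error only, because PCR copies could not be told from separate molecules. They also rest on the light fraction values that helped to choose the set, so no difference between diets is read from them. In CD total RNA the alpha share was 65% of 20 fragments (40.8% to 84.6%), which overlaps both light fraction intervals. All 8 fragments of WD total RNA were alpha, with Hbb listed at 0, and the heavy libraries held 4 fragments in CD and 2 in WD.

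Within the alpha globins, Hba2 supplied 13 of 18 fragments in the CD light fraction (72.2%, interval of 46.5% to 90.3%) and 55 of 153 in the WD light fraction (35.9%, 28.4% to 44.1%). It supplied 8 of 13 fragments in CD total RNA (61.5%, 31.6% to 86.1%), 5 of 8 in WD total RNA (62.5%, 24.5% to 91.5%) and 3 of 3 in the CD heavy fraction (at least 29.2%). Each of these intervals, and that of the CD light fraction, includes an equal split, whereas that of the WD light fraction lies below it. All of them cover counting error only, and the light fraction values helped to choose the set. The division of reads between the near-identical copies is uncertain. When all 5 globin loci are taken by FPKM, the alpha share was 76.4% in the CD light and 36.6% in the WD light fraction, 67.5% and 90.5% in total RNA of CD and WD livers, and 55.0% in the CD heavy fraction.

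**Figure D4:**
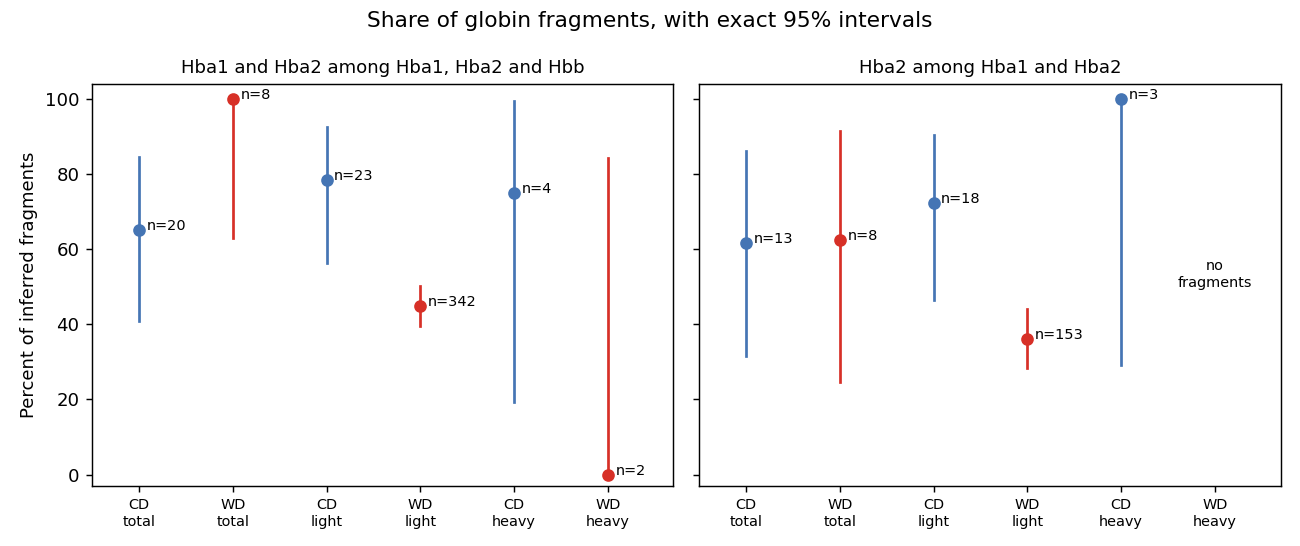
Percent of inferred fragments (vertical axis) that are alpha globin among Hba1, Hba2 and Hbb (left) and Hba2 among the alpha globins (right) in each library, with exact 95% intervals, the number of fragments as n, blue for CD and red for WD. The WD light fraction (342 fragments) has 44.7% alpha globin against 78.3% in the CD light fraction.

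Among other globins and neighbours, the embryonic beta-like globins Hbe1, Hbe2 and Hbg1 and the embryonic alpha-like globin Hbz were listed at 0 in all 6 libraries, as were the other 8 loci that start within 100000 bases of the beta globins, all of them olfactory receptors. Near the alpha globins, Hbq1b, a theta globin, was at 3.76 FPKM in CD total RNA and 5.50 FPKM in the CD light fraction, each 1 fragment, and at 0 elsewhere. LOC287167, the gene that RefSeq now names Hba-a3 and that the rule did not cover, had 2.59 FPKM in the WD light and 5.89 FPKM in the WD heavy fraction and no value above 0 in the other 4 libraries. Of the 8 neighbours averaging 1 FPKM or more at the alpha globins, LOC287167 alone was higher in the WD than in the CD light fraction. Of all loci, 25.9% reached a ratio of 1.5 there. Its WD heavy value exceeded its WD light value, and the other neighbours were lower in the WD light fraction. Nprl3, for example, whose introns hold the main enhancers of alpha globin, went from 3.27 FPKM to 1.57 FPKM.

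A list of other genes of red cells was compared in the same way. Of 37 such genes, 31 were found by symbol, 10 of these were listed at 0 in all libraries and 8 averaged 1 FPKM or more. The 3 highest were Xpo7, a nuclear exporter, Tspan33, a membrane protein, and Tfrc, the transferrin receptor, all of which other cells express as well. Of the 8, 2 were higher in the WD than in the CD light fraction (25.9% of all loci were) and 3 were lower (26.8%), with a median log2 ratio of -0.042, against 0.017 for all 10201 loci. In total RNA 1 was higher (17.7% of all loci) and 4 were lower (22.7%). Among the less abundant ones, Klf1 and Nfe2, regulators of red cell genes, and Tmod1 and Epb42, genes of the membrane skeleton, were above 0 only in the WD light library, the deepest one, at 0.155 to 0.811 FPKM. Hemgn (1.47 to 0.337 FPKM), Kel (0.622 to 0.286 FPKM) and Rhd (0.653 to 0.300 FPKM) were lower in the WD than in the CD light fraction, on 1 or 2 fragments each. With no filter on the mean, 8 genes of the list were higher and 6 lower there, and among all loci 4282 were higher and 3575 lower.

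Tfrc went from 12.3 FPKM (44 fragments) to 20.4 FPKM (159 fragments) between the CD and the WD light fraction. The interval of its ratio, for FPKM as deposited, ran from 1.18 to 2.38, and its lower end near 1 depends on the scaling. Slc4a1, the band 3 anion exchanger of the red cell membrane, went from 0.896 FPKM to 2.2 FPKM. Tspan33 went from 25.1 FPKM (35 fragments) to 11.9 FPKM (36 fragments), with an interval of 0.289 to 0.776. Ahsp, the chaperone of free alpha globin, was at 3.77 FPKM in the WD heavy fraction and listed at 0 in the other libraries, and Gata1, a master regulator of red cells, and Rhag, a protein of their membrane, were listed at 0 throughout. Summed over the list, the level was 78.4 FPKM in the CD and 68.1 FPKM in the WD light fraction, whereas the globin sum went from 84.8 to 694 FPKM.

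Heme synthesis genes showed smaller differences between the light fractions than the globins Hbb and Hba1, which were chosen on these values. The 7 other enzymes of the pathway in the list all averaged 1 FPKM or more. Between the light fractions, Alad (aminolevulinate dehydratase) was lower in WD, at 174 FPKM against 375 FPKM. The other 6 lay between the limits, and the median log2 ratio was -0.11. Of all loci, 25.9% were higher and 26.8% lower. In total RNA, 0 of the 7 passed either limit, compared with 17.7% of all loci higher and 22.7% lower, and the median was -0.096. Alas1, the form used outside red cells, was at 38.2 FPKM in CD and 35.4 FPKM in WD, and at 48.1 FPKM and 39.6 FPKM in total RNA. It was thus more abundant than Alas2 in every library.

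**Figure D5:**
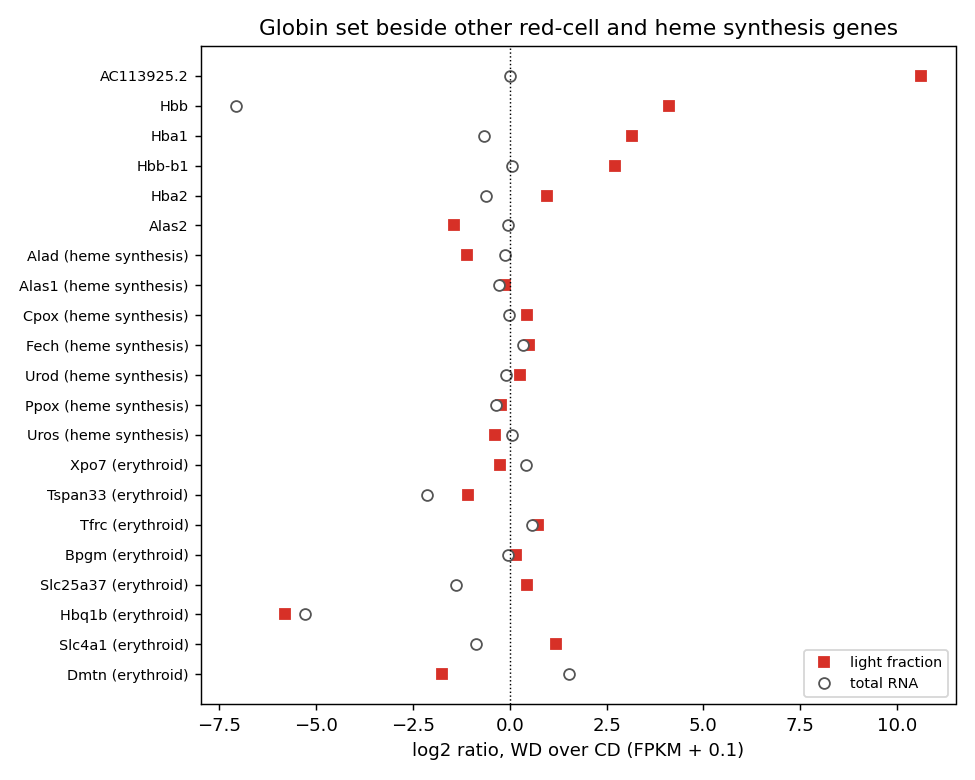
log2 ratio of WD to CD (FPKM + 0.1, horizontal axis) in the light fraction (red squares) and in total RNA (open circles) for the 8 compared genes of red cells, 7 other enzymes of heme synthesis and the 6 loci of the set. In the light fraction the globins lie from 0.96 to 10.6, above all the other genes shown but Slc4a1, and Hbb in total RNA and Hbq1b in both owe their position to values listed at 0.

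The genes that clear hemoglobin and heme are made in hepatocytes and Kupffer cells. Of 10 in the list 8 were found, and between the light fractions 2 were higher in WD, against 25.9% of all loci (Cd163, the hemoglobin scavenger receptor, from 0.369 to 2.38 FPKM, and Hmox2) and 2 were lower, against 26.8% (Hmox1, the inducible heme oxygenase, from 4.69 to 2.59 FPKM, and Slc48a1). The counting intervals of both ratios include 1, at 0.140 to 2.29 for Hmox1 and 0.420 to 1.35 for Slc48a1. Hmox1 had the opposite direction in total RNA, from 3.20 to 7.37 FPKM, and in the heavy fraction, from 11.1 to 19.7 FPKM. Hp (haptoglobin) was at 2592 FPKM in the CD and 2937 FPKM in the WD light fraction, and Hpx (hemopexin) at 2228 and 2482 FPKM.

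Markers of other blood cells summed to few FPKM, and their listed zeros, like that of Hbb, are not read as absence. The neutrophil genes S100a8 and S100a9 were listed at 0 in all libraries, and the 8 neutrophil markers summed to at most 1.30 FPKM in a library and to 0 in the WD light one. The 8 lymphocyte markers summed to 2.52 FPKM in the CD light and 0.712 FPKM in the WD light fraction. Of 8 platelet markers 7 were found, 4 of them listed at 0 throughout, and they summed to 0.440 FPKM in the CD light, 2.90 FPKM in the WD light and 9.27 FPKM in WD total RNA, the latter mostly Pf4. The labelled tissue was plain from hepatocyte genes. Alb ranged from 24966 FPKM in the WD light to 97448 FPKM in the WD heavy fraction. Of 7 such genes, 1 (Apoa1) was higher in the WD than in the CD light fraction, against 25.9% of all loci. Another 2 (Ttr and Fgb) were lower, against 26.8%.

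The 5 loci most like Hbb over the 6 libraries held 0 genes of the red-cell list. Only 8 genes of that list are among the 10201 loci compared, so nothing is read from this 0. Likeness was measured as the root mean square difference in log2(FPKM + 0.1), each locus centred on its own mean, among the 10201 loci. The closest were Ndufs5 (1.11), Ndufb9 (1.20), AABR07054370.1 (1.21), Ube2e1 (1.61) and AABR07071395.1 (1.66). Ndufs5 and Ndufb9 encode subunits of respiratory complex I, and Ube2e1 a ubiquitin-conjugating enzyme.

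Ndufs5 was at 5.47 FPKM (2 fragments) in CD total RNA, listed at 0 in WD total RNA, and at 4.00 FPKM (1 fragment) in the CD light, 129 FPKM (70 fragments) in the WD light, 8.60 FPKM (2 fragments) in the CD heavy and 8.39 FPKM (2 fragments) in the WD heavy fraction. Ndufb9 went from 2.54 FPKM (1 fragment) in the CD to 123 FPKM (105 fragments) in the WD light fraction and was listed at 0 in WD total RNA as well. All 5 of these loci had, as Hbb did, their highest value in the WD light library and a listed 0 in WD total RNA. They were picked for likeness to Hbb over these same values, so what they share with it is not a separate result. By the same measure Hbb-b1 ranked 132, and Hba1 and Hba2, which were above 0 in WD total RNA and listed at 0 in the WD heavy fraction, ranked 9402 and 9128.

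The share of loci past the higher limit was also tabulated by the span of the locus, without a test. With the 6 loci of the set left out, 205 of 553 loci that span under 2 kb (37.1%) reached a WD to CD ratio of 1.5 in the light fraction, compared with 31.2% of 2169 loci of 2 to 10 kb and 23.5% of 7473 loci of 10 kb or more. In total RNA the shares were 22.1%, 21.0% and 16.4%, and in the heavy fraction 25.0%, 25.9% and 20.2%. The median log2 ratio in the light fraction was 0 for the shortest loci, 0.10 for those of 2 to 10 kb and 0.0049 for the longest, so the medians did not follow the order of the shares. This split by span was chosen after seeing the data. Hba1, Hba2 and Hbb span under 2 kb and Alas2 spans 19647 bases. The span of a locus includes introns and is not the length of its mRNA, and the part of length in the globin values was not tested.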

How the data were processed

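Each library was made from RNA pooled from 3 rats, depleted of ribosomal RNA and primed at random. Reads were aligned to Rnor_6.0 with TopHat per the submitters' processing notes, and the authors deposited FPKM values, normalized between libraries with Cuffnorm, with lower and upper bounds from Cufflinks. The annotation is not given in the sources used here.

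The genes and lists were chosen with earlier results of these data known. Loci were compared on the scale of FPKM + 0.1, without p-values, since each group is 1 library. Whole fragments were inferred as the smallest numbers that a step per locus and a factor per library explain (within 0.01 of a fragment plus 0.0001 of the number, at most 0.05, with up to 30 for the lowest value). The most frequent bound was taken as that of 1 fragment. Numbers were kept where every bound that could be checked matched that typical of the number within 0.002. Only numbers up to 30 could be checked. The 4 members kept matched at all 17 values checked, as the rule requires. The WD light numbers of Hbb, Hba1 and Hba2 are above 30 and were not checked. Numbers were kept for 7226 of 13283 loci above 0 in at least 2 libraries. These loci held 58344 (CD heavy) to 175434 (WD light) fragments per library. The method was tested on simulated data.

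Named genes were the members, loci starting within 100000 bases of one, list genes of at least 1 FPKM, defining markers and the 5 loci most like Hbb. Genes at 0 or below 1 FPKM were named after their values were seen. A few genes of the lists are not reported here and were left out of the counts. Coding lengths were not used here, and locus span took their place. Alternatives were other filters, pseudocounts, scalings, fold limits and, added after seeing the data, the inverse density ratio, and heavy over total RNA as density. The software was Python 3.11.15 with numpy 2.4.6, pandas 2.3.3, matplotlib 3.10.9 and scipy 1.17.1.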

Additional observations from a re-analysis of the deposited data

Results flagged for a closer look

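Some of the 6 loci had effects of opposite sign in the groups compared. With 1 library per group, none of these differences was tested, and each value below is a difference between log2 ratios of FPKM + 0.1. The light to heavy ratio was below 1 in CD and above 1 in WD for AC113925.2 (difference of 15.7), and above 1 in CD and below 1 in WD for Alas2 (-1.21). The WD to CD ratio was below 1 in total RNA and above 1 in the light fraction for Hbb (11.2), Hba1 (3.83) and Hba2 (1.57). It was below 1 in the heavy and above 1 in the light fraction for AC113925.2 (15.7) and Hba2 (7.83). The values of AC113925.2, of Hbb and of Hba2 against the heavy fraction include a library listed at 0, so their size is set by the 0.1 FPKM added. For Hba2 in total RNA the counting interval of the ratio was 0.168 to 2.27 and for Alas2 within WD it was 0.300 to 1.41, both of which include 1.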

How the results depend on the processing

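The count of globins higher in the WD light fraction was 5 under every filter on the mean of all 6 libraries, pseudocount and scaling tried, and 4, without Hba2, at a limit of 2-fold. When the filter used the mean of the other 5 libraries, an alternative chosen after seeing the data, AC113925.2 dropped out, leaving 4 globins, and CD light over heavy then had 0 loci and WD over CD heavy 1 locus of the set past the lower limit. Among all loci under that filter, 3838 and 2608 passed it. With a 2-fold limit, 0 loci passed the lower limit for WD light over heavy, 1 for WD over CD total RNA, and 1 the higher limit for WD over CD heavy. With heavy over total RNA as the measure, ribosome density was higher at 3 loci and lower at 2, and turned for Hbb-b1 (1.46), Hbb (8.01), Hba1 (0.67) and Alas2 (-0.20). WD heavy RNA was at least 1.5 times WD total RNA at 2 loci. The cause of these shifts was not tested.

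Counts of the small lists moved with the filter, which changes the genes counted, and with rescaling. For the red-cell list in total RNA, higher counts were 2 at a mean of at least 0.1 FPKM, 3 with no filter, 0 at 10 FPKM and 2 after rescaling, and the lower count was 1 at 10 FPKM. In the light fraction, higher and lower counts were 4 and 6 at 0.1 FPKM, 8 and 6 with no filter, and 1 and 1 at 10 FPKM, and the higher count was 1 after rescaling and 1 with the filter on the other 5 libraries. For heme synthesis, the lower count in the light fraction was 4 after rescaling.

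Among all loci, a mean of at least 10 FPKM left 696 higher and 1106 lower in the WD light fraction, no filter gave 4282 higher, and a 2-fold limit left 1666 and 1059. For WD light over heavy, rescaling gave 2905 higher and 4640 lower in place of 3558 and 3716, and for ribosome density 3870 and 2771 in place of 2830 and 3686. No paired analysis was possible because each group is 1 pooled library, and no replicate could be left out. Without the WD light library the comparison of light fractions has no value.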
